A study of Homo sapiens with 9 samples.

Results

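The genes described here were 8 human protein-coding genes that served as endogenous reporters of nonsense-mediated decay (NMD): TBL2, UPP1, NAT9, PANK2, CCNB1IP1, DNAJC25, LETMD1 and TAF1D. They were 8 of 19782 protein-coding genes with a matched transcript in the files, and were chosen as NMD reporters or because they rose most with UPF1 siRNA. RNA was sequenced from K562 cells, a human erythroleukaemia line, in 9 libraries of 3 groups with 3 biological replicates each. The groups received a non-targeting siRNA (SCR), siRNA against DHX34 (DHX34-kd) or siRNA against UPF1 (UPF1-kd), and all were collected on day 4. DHX34 and UPF1 are RNA helicases, and UPF1 is the core factor of NMD. Because the members were selected on the UPF1-kd libraries, their values in UPF1-kd beside SCR are given as a description, and for the members only DHX34-kd against SCR is read as a test. That test shares its SCR libraries with the selection.

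NMD degrades mRNAs whose stop codon lies well upstream of an exon-exon junction, where an exon junction complex left behind by splicing marks the stop as premature. Many genes make such RNAs through alternative splicing, by including a poison exon, skipping an exon or shifting a splice site so that the reading frame changes. Upstream open reading frames in the 5′ leader can have the same effect on an mRNA with an intact coding sequence. When UPF1 is lost, RNAs of both kinds are known to accumulate. The 8 genes have unrelated functions: TBL2 codes for a WD40-repeat protein, UPP1 for uridine phosphorylase, NAT9 for an N-acetyltransferase and PANK2 for the mitochondrial pantothenate kinase of coenzyme A synthesis. CCNB1IP1 codes for a RING-type ubiquitin ligase, DNAJC25 for a DnaJ-type co-chaperone, LETMD1 for a LETM1-domain mitochondrial protein and TAF1D for a subunit of the RNA polymerase I factor SL1.

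The libraries held 73478797 to 103625443 expected counts, which is the number of reads that salmon assigned to transcripts. Normalised to CPM (counts scaled to a common library size), DHX34 went from 73.7 ± 1.11 CPM in SCR to 31.4 ± 2.32 in DHX34-kd, and UPF1 from 261.7 ± 8.12 to 105.6 ± 1.46 in UPF1-kd (SD, n = 3 libraries per group). The erythroid genes GATA1, KLF1 and HBZ were present in every library, while KRT5 and MS4A1, markers of epithelium and B cells, and CDKN2A, a locus deleted in K562, were at 0 in all 9. The fetal globin gene HBG1 was at 2894 ± 126.1 CPM in SCR, 2544 ± 209.3 in DHX34-kd and 1735 ± 70.23 in UPF1-kd. Of the 7 markers of other cell types, COL1A1 was at 0.701 ± 0.0885 CPM in SCR and 4.82 ± 0.515 in DHX34-kd, while DCN, the other fibroblast marker, was at 0 in DHX34-kd, and EPCAM was at 68.1 to 80.4 TPM in all libraries. The part of these genes in the values of the members was not tested, and in bulk RNA fewer cells of a type and less RNA per cell cannot be told apart. Transcript levels are in TPM, salmon's unit that corrects for transcript length and depth. Over all genes tested the median log2 ratio of TPM to SCR was 0.17 in DHX34-kd and 0.21 in UPF1-kd, compared with 0.02 for both in the fits on counts, and changes in TPM are to be read relative to that shift. Levels of single isoforms rest on how salmon divides reads among similar transcripts.

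Each gene was described through the transcript with the largest rise in mean TPM from SCR to UPF1-kd, and this transcript was set beside the most abundant coding isoform with the same start codon. The 5 isoforms that ended early or were spliced after the stop were annotated as NMD substrates. Sequences and positions are those of GENCODE 44 on GRCh38. Their coding sequences from 15 bases before the first difference to the stop codon are shown to make visible where each reading frame ends, 5′ to 3′ on the coding strand, with the stop codon in capitals. For TAF1D-205, whose coding sequence is the same as that of the coding isoform, the last 30 coding bases are shown.
TBL2-209: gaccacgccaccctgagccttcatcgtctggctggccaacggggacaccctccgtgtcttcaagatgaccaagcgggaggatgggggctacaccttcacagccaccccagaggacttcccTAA
PANK2-202: tgtgtggacgcaaagataggTGA
DNAJC25-202: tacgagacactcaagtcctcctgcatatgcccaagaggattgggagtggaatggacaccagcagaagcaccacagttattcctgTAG
LETMD1-221: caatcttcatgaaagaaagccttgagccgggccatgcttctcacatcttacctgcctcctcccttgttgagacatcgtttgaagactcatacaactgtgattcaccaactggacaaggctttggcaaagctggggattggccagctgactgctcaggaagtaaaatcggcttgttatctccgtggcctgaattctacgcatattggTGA
TAF1D-205: aatactggacagagaggcctgaaaatgTGA

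In TBL2-209 (ENST00000450285, minus strand of chromosome 7, GRCh38) an exon ended 23 bases early, at a donor site inside the exon of TBL2-201. The first 423 coding bases were shared and the frame closed within 108 further bases, which include the TAA stop codon at chr7:73573364-73573366, 324 bases upstream of the last exon junction. The 23 bases that TBL2-209 lacks, chr7:73573938-73573960, are in capitals after 15 shared bases, and begin with the GT of the inner donor site.
TBL2-201: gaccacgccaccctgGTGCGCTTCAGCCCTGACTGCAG
PANK2-202 (ENST00000336066, plus strand of chromosome 20) also used an inner donor site, and lacked the last 143 bases of the second exon of PANK2-207. The 508 shared coding bases were followed by 8 more, which include the TGA stop codon at chr20:3910582-3910584, 673 bases upstream of the last junction. DNAJC25-202 (ENST00000447096, plus strand of chromosome 9) held an extra exon of 238 bases at chr9:111642857-111643094. Its frame entered this exon after 336 coding bases and ended after 72 further bases, the TAG stop codon included, 790 bases upstream of the last junction.

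LETMD1-221 (ENST00000550100, plus strand of chromosome 12) skipped 4 exons of LETMD1-201, 488 bases in all between chr12:51052092-51056245. The shifted frame ran for 194 bases, which include the TGA stop codon at chr12:51058070-51058072, which lies 56 bases before the last junction, the shortest of these distances. TAF1D-205 (ENST00000526015, minus strand of chromosome 11) kept the stop codon of the coding isoform TAF1D-203, at chr11:93736161-93736163. It differed behind that stop, where the last exon of TAF1D-203 was cut and spliced on to further exons, so that the same stop lay 445 bases before the last junction. TAF1D hosts small nucleolar RNAs in its introns, and all of those annotated there were listed at 0 TPM in the group means. CCNB1IP1 overlaps the small nucleolar RNAs SNORA79B and SNORD126 on its own strand. SNORA79B had means of 18.3 TPM in SCR, 10.6 in DHX34-kd and 0.0 in UPF1-kd, and SNORD126 was at 0.0 in all groups. Whether reads were shared between them and CCNB1IP1 was not tested.

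The other isoforms with the largest rise were annotated as protein coding. CCNB1IP1-202 (ENST00000358932, minus strand of chromosome 14) had the 834 coding bases and the stop of CCNB1IP1-201, in the last exon. It held an extra exon of 200 bases in the 5′ leader, at chr14:20329174-20329373, and its leader of 456 bases contained 8 ATG triplets with 6 reading frames closed before the start codon. The leader of CCNB1IP1-201, 289 bases long, contained 5 ATG triplets with 3 such frames. Of 24752 coding transcripts of at least 0.5 TPM with an annotated leader, 49.4% had at least 1 ATG in it and 9.2% at least 5. NAT9-210 (ENST00000580301, minus strand of chromosome 17) shared its stop with NAT9-201, and its coding sequence was shorter by the 3 bases of a shifted acceptor site. It had 0 ATG triplets in its leader of 82 bases, and its stop lay in the last exon.

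The position of the stop was read in spliced transcripts that averaged 0.5 TPM or more and had annotated sequence behind the stop codon, which leaves out coding transcripts that are annotated without an end. Of these, all 21 NMD-biotype transcripts of the members had their stop more than 50 bases before the last junction, and 0 of their 19 coding transcripts did. Over all genes, in transcripts that met the same conditions, the shares were 99.9% of 4021 NMD-biotype transcripts and 0.497% of 22338 coding transcripts. Biotype and stop position thus almost coincide in the annotation, and nothing particular to the members is read from their counts.

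**Figure D1:**
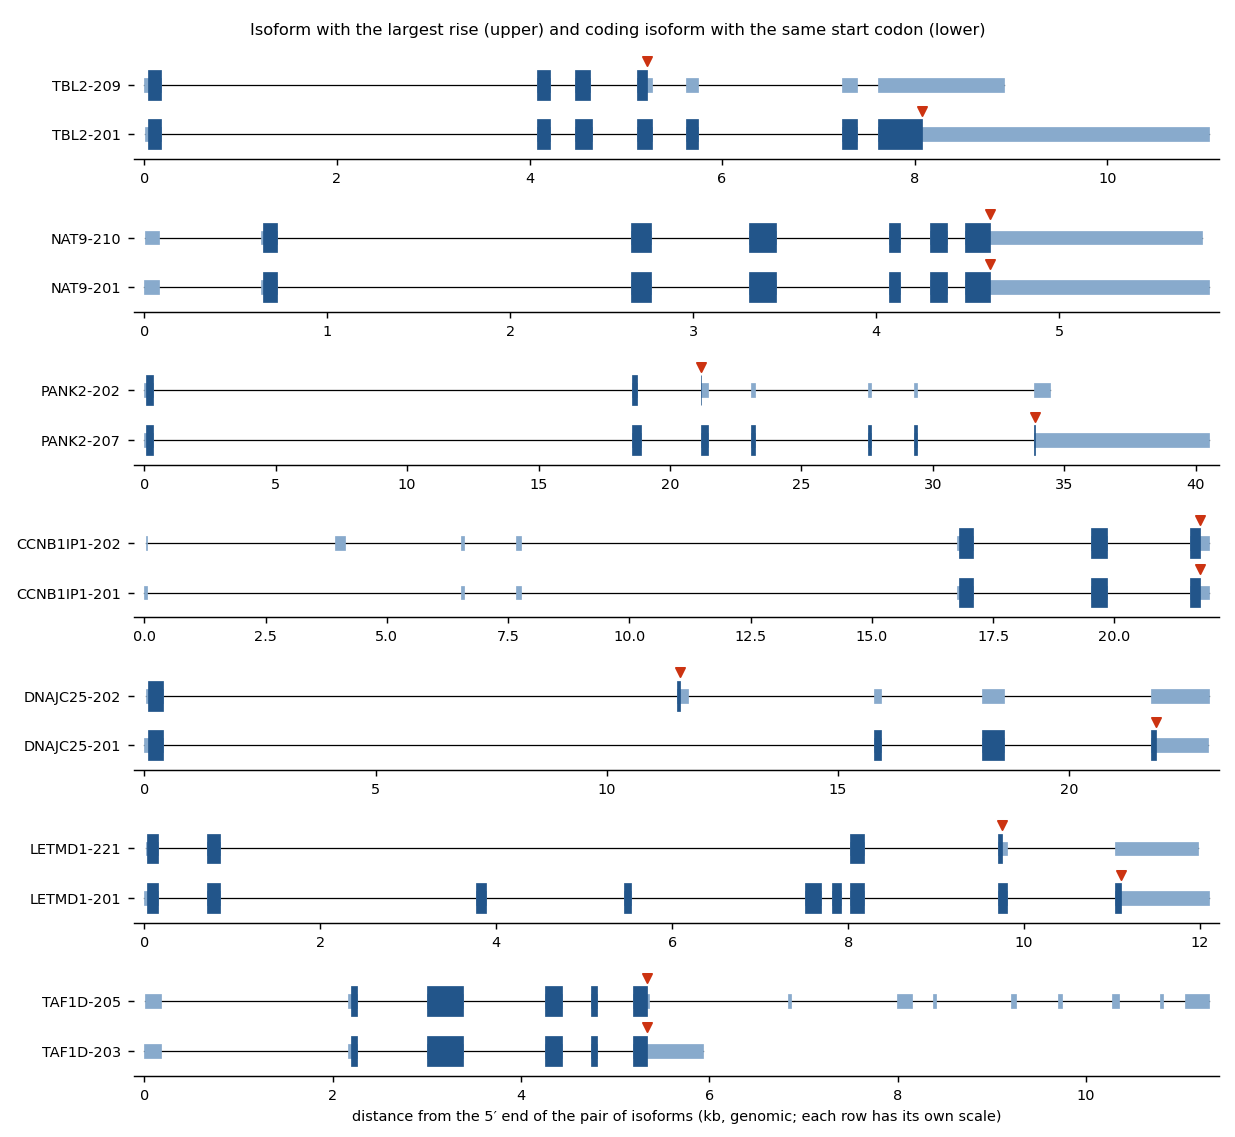
Exons of the isoform with the largest rise (upper line of each pair) and of the coding isoform with the same start codon (lower line), to scale in genomic kb from the 5′ end, with coding sequence in dark tall boxes, untranslated sequence in pale low boxes and the stop codon as a red triangle. In TBL2, PANK2, DNAJC25 and LETMD1 the stop of the upper isoform sits upstream of that of the lower one, in TAF1D the stops coincide and the upper isoform has 8 introns that the lower one lacks, and in NAT9 and CCNB1IP1 both stops are in the last exon.

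Gene sums were the first level at which the members were described. In 7 of the 8 genes all 3 UPF1-kd libraries lay above all 3 SCR libraries, and above all 3 DHX34-kd libraries as well. Over the 17152 genes with values, 26.7% had all UPF1-kd libraries above SCR, and 12.4% of 17184 genes tested were called higher (edgeR, adjusted p of at most 0.005). This contrast chose the members, so nothing is read from the count.

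DNAJC25 had 9.08, 9.58 and 9.78 CPM in the SCR libraries and 31.7, 31.5 and 31.2 in the UPF1-kd libraries. Its values in DHX34-kd were 8.24, 8.64 and 9.96 CPM, which overlapped SCR. The UPF1-kd log2 fold change of 1.72 (SE 0.05) ranked it at place 5 of 9500 protein-coding genes of at least 5 CPM. CCNB1IP1 had 62.6, 60.6 and 59.0 CPM in SCR and 147.0, 148.0 and 151.0 in UPF1-kd. In the DHX34-kd libraries it had 55.1, 52.8 and 50.7 CPM, all below SCR. Its UPF1-kd log2 fold change was 1.28 (SE 0.034), at place 12. LETMD1 had 49.5, 51.7 and 49.9 CPM in SCR and 110.0, 114.0 and 114.0 in UPF1-kd, a log2 fold change of 1.16 (SE 0.034) at place 20. With 45.3, 41.7 and 48.4 CPM its DHX34-kd libraries were also below SCR. In these 3 genes the fold changes, 3.3, 2.44 and 2.23, were the largest of the 8 members.

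TAF1D had 82.5, 83.4 and 79.1 CPM in SCR and 128.0, 124.0 and 123.0 in UPF1-kd, a log2 fold change of 0.61 (SE 0.034). TBL2 had 79.8, 85.9 and 86.7 CPM in SCR and 113.0, 113.0 and 123.0 in UPF1-kd, a log2 fold change of 0.46 (SE 0.042). PANK2 had 34.0, 33.6 and 34.6 CPM in SCR and 45.9, 46.4 and 48.0 in UPF1-kd, a log2 fold change of 0.45 (SE 0.038). The UPF1-kd libraries of these genes did not overlap SCR, with fold changes of 1.52, 1.38 and 1.37. NAT9 had 53.6, 52.8 and 49.7 CPM in SCR and 68.6, 68.5 and 66.5 in UPF1-kd, a log2 fold change of 0.38 (SE 0.04), at place 649. The DHX34-kd libraries of TAF1D, TBL2, PANK2 and NAT9 overlapped SCR, with means of 79.2, 84.4, 32.6 and 48.4 CPM.

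UPP1 was expressed at a low level and was the exception. It had 0.785, 0.627 and 0.705 CPM in SCR, 0.643, 0.749 and 1.01 in DHX34-kd and 1.06, 0.803 and 0.711 in UPF1-kd, and the 3 groups overlapped. The log2 fold change in UPF1-kd was 0.27 with an SE of 0.245. No transcript of UPP1 reached a mean of 0.5 TPM, so none is described further.

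**Figure D2:**
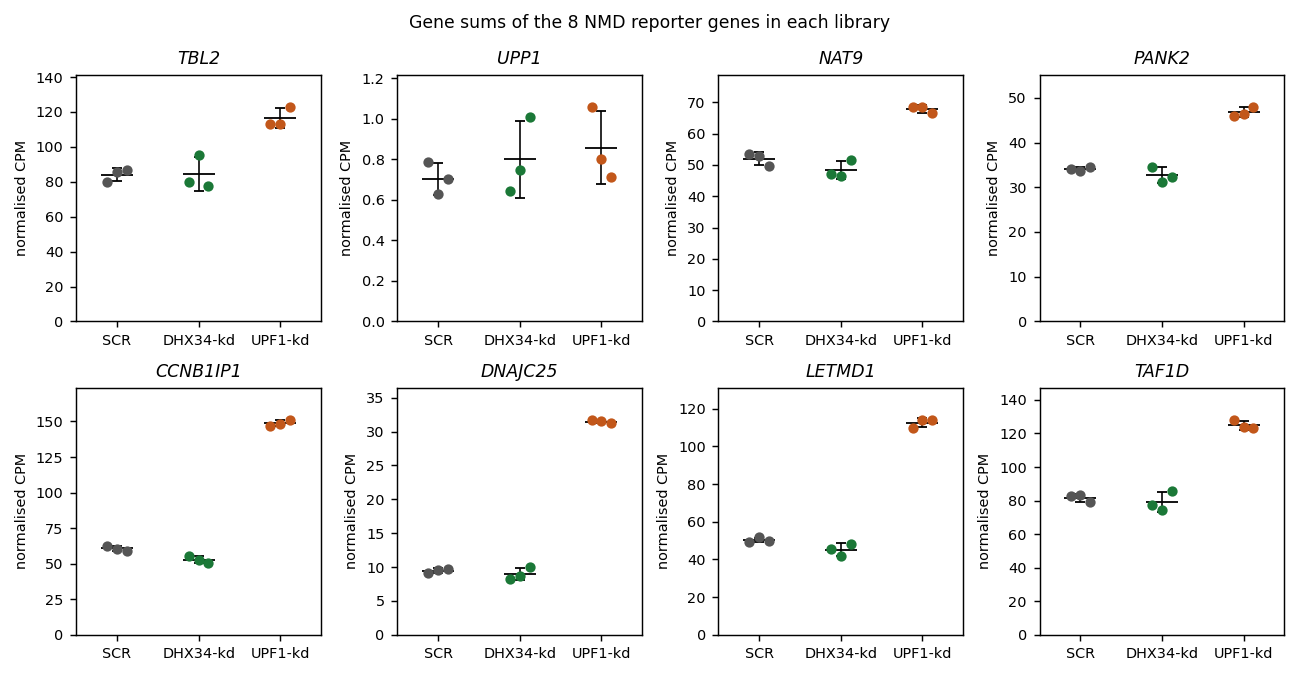
Normalised CPM of the 8 genes in each library (points), with the group mean and SD (bar) in SCR, DHX34-kd and UPF1-kd, on axes that start at 0. In the 7 genes other than UPP1 the UPF1-kd points lie above all others, from 31.2 to 31.7 CPM in DNAJC25 and from 147.0 to 151.0 CPM in CCNB1IP1.

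When TPM was summed by transcript biotype, the sum over NMD-biotype transcripts of a gene was higher in UPF1-kd than in any SCR library in 6 genes. The share of all NMD-biotype sums that separate in this way was not counted. As this contrast chose the members, nothing is read from the number. LETMD1 had 10.5, 13.4 and 13.5 TPM of NMD-biotype transcripts in SCR and 52.1, 56.3 and 54.4 in UPF1-kd. This class was 26.8% ± 3.54 of the gene's TPM in SCR and 45% ± 1.08 in UPF1-kd (SD, n = 3). DNAJC25 had 1.71, 2.31 and 1.83 TPM in SCR and 11.9, 12.5 and 12.6 in UPF1-kd, which took the class from 38.3% ± 5.02 to 65.6% ± 2.7 of the gene. TAF1D had 39.7, 35.8 and 37.7 TPM in SCR and 104.0, 98.7 and 97.5 in UPF1-kd, and its share went from 42.6% ± 1.4 to 65.2% ± 0.996. In these genes the NMD class was the larger part of the rise, and in DNAJC25 and TAF1D it made up most of the RNA in UPF1-kd.

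PANK2 had 6.33, 6.93 and 8.0 TPM of NMD-biotype transcripts in SCR and 16.0, 15.6 and 15.1 in UPF1-kd, while its coding transcripts, at 13.3, 14.1 and 12.2 TPM and 15.2, 14.1 and 16.6 TPM, overlapped between the groups. TBL2 had 22.9, 21.2 and 23.6 TPM in SCR and 44.7, 42.5 and 44 in UPF1-kd, and its coding transcripts, with means of 11.0 and 13.2 TPM, overlapped too. TAF1D coding transcripts had means of 3.29 and 3.02 TPM. So in PANK2, TBL2 and TAF1D the coding class did not separate UPF1-kd from SCR, whereas in LETMD1 it went from 20.9 ± 1.66 to 42.6 ± 1.56 TPM and in DNAJC25 from 3.13 ± 0.189 to 6.48 ± 0.584 TPM without overlap.

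CCNB1IP1 and NAT9 had another pattern. CCNB1IP1 had 49.0, 48.1 and 45.6 TPM of coding transcripts in SCR and 131.0, 131.0 and 132.0 in UPF1-kd, and its NMD-biotype share overlapped between the groups, with means of 8.59% and 9.37%. NAT9 had 32.6, 34.2 and 30.8 TPM of coding transcripts in SCR and 52.3, 50.1 and 48.8 in UPF1-kd. Its single NMD-biotype transcript was at 0 in all 3 UPF1-kd libraries and at no more than 0.222 TPM in any library.

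**Figure D3:**
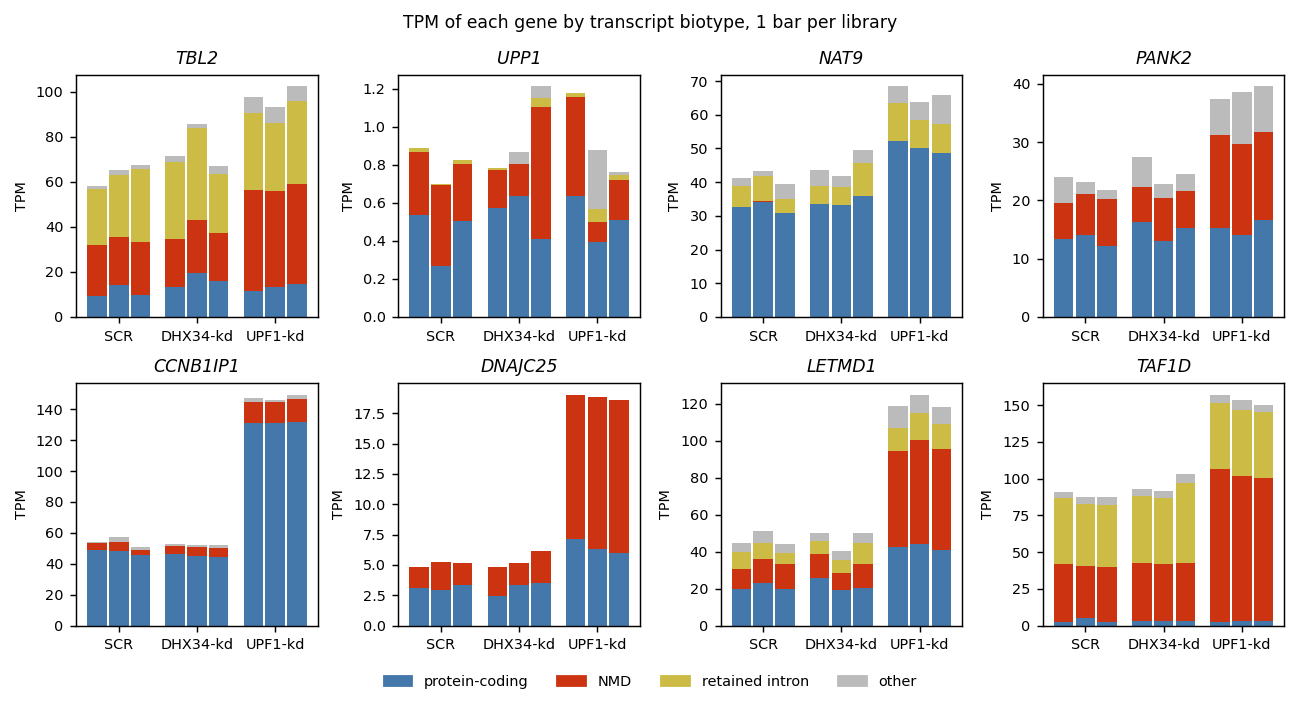
TPM of each gene in each of the 9 libraries, stacked by the biotype of its transcripts (protein-coding, NMD, retained intron, other), with each gene on its own axis. The red NMD part of TAF1D goes from between 35.8 and 39.7 TPM in SCR to between 97.5 and 104.0 TPM in UPF1-kd, and the blue coding part makes up most of CCNB1IP1 and NAT9 in every library.

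The isoform that carried the rise was of NMD biotype in 5 of the 8 genes. Over 13210 protein-coding genes tested the transcript with the largest rise was of NMD biotype in 8.44%, and over the 1777 protein-coding genes called higher in UPF1-kd in 8.72%. Among the 478 of these with a log2 fold change of at least 0.5 it was 13.2%. All 8 members had an annotated NMD-biotype transcript, compared with 43% of the 13210 genes. No test was made, since the members were picked with knowledge of the rise.

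LETMD1-221 had 6.18, 9.16 and 9.2 TPM in SCR and 39.3, 44.1 and 43.1 in UPF1-kd, and took 45% of the summed rise of all LETMD1 transcripts that rose. Its DHX34-kd values of 10.3, 6.55 and 9.32 TPM overlapped SCR. The coding isoform LETMD1-201 went from 6.24 to 11.6 TPM on average, so both kinds of isoform were higher in UPF1-kd. DNAJC25-202, the poison exon isoform, had 1.6, 2.14 and 1.68 TPM in SCR and 11.0, 11.6 and 12.0 in UPF1-kd, which was 70.7% of the rise. DNAJC25-201, its coding partner, had 3.14, 2.93 and 3.31 TPM in SCR and 7.12, 6.34 and 5.97 in UPF1-kd. The order of the pair was thus inverted, with the coding isoform ahead in SCR and the poison exon isoform ahead in UPF1-kd. DNAJC25 shares its strand with the readthrough gene DNAJC25-GNG10, which had 5.69 TPM in SCR and 5.54 in UPF1-kd, and reads of the shared exons could be assigned to either.

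PANK2-202 had 6.22, 6.69 and 7.82 TPM in SCR and 15.5, 15.1 and 14.3 in UPF1-kd, 51.7% of the rise, while PANK2-207 had means of 6.15 and 6.55 TPM. A further 31.6% of the PANK2 rise lay in transcripts of other biotypes, 17.9% in PANK2-204, for which no coding sequence is defined. RNF24 overlaps PANK2 on the opposite strand and went from a mean of 14.0 to 21.6 TPM, and whether the reads were counted by strand is not given in the sources used here. TAF1D-205 had 11.6, 11.1 and 11.5 TPM in SCR and 39.3, 33.0 and 33.7 in UPF1-kd, 35.3% of the rise. Another 23.3% went to TAF1D-202 and 17.3% to TAF1D-207, so that NMD-biotype transcripts together made 92.4% of the TAF1D rise. TAF1D overlaps CEP295, C11orf54 and MED17 on the opposite strand, which went from 4.14 to 7.02, from 14.6 to 20.7 and from 18.1 to 17.9 TPM. In TBL2 the rise was spread over more isoforms. TBL2-209 had 14.9, 15.6 and 14.6 TPM in SCR and 26.7, 25.1 and 25.4 in UPF1-kd, which was 27.1% of the rise, followed by the retained intron transcript TBL2-219 with 19.7% and by TBL2-204 with 19.3%.

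TBL2-204 held an extra exon of 161 bases at chr7:73576541-73576701 with the stop inside it, and went from 3.53, 2.32 and 3.24 TPM in SCR to 11.2, 9.99 and 10.7 in UPF1-kd. Its log2 fold change on counts of 1.55 (SE 0.189) was larger than the 0.52 (SE 0.039) of TBL2-209, which was the more abundant of the pair. CCNB1IP1-202 had 40.5, 39.2 and 40.9 TPM in SCR and 121.0, 116.0 and 122.0 in UPF1-kd, and took 85.0% of the rise of its gene, the most concentrated rise of the 8. CCNB1IP1-201, which lacks the extra leader exon, had 7.59, 8.37 and 3.89 TPM in SCR and 6.82, 10.4 and 5.53 in UPF1-kd, with overlap. A minor NMD-biotype transcript, CCNB1IP1-213, holds a poison exon of 134 bases and went from a mean of 1.57 to 7.94 TPM. NAT9-210 had 18.9, 18.5 and 19.1 TPM in SCR and 31.5, 26.3 and 28.5 in UPF1-kd, 38.9% of the rise. When each SCR and UPF1-kd library was left out in turn, the same transcript carried the rise in 6 of 6 cases in the 7 genes other than UPP1.

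To give the share of each event in the RNA present, the TPM of all transcripts that hold it was divided by that of transcripts with either form. More frequent splicing and slower decay of the RNA with the event cannot be told apart by such a share. The poison exon of DNAJC25 was in 33.7%, 42.2% and 33.6% of TPM in SCR and in 60.7%, 64.6% and 66.8% in UPF1-kd. The inner donor site of PANK2 was in 44.7%, 45.8% and 47.4% in SCR and in 63.1%, 62.4% and 61.8% in UPF1-kd. The intron behind the TAF1D stop was removed in 66.5%, 67.9% and 64.2% in SCR and in 80.6%, 79.5% and 80.6% in UPF1-kd. In each of these genes the UPF1-kd and SCR libraries were apart. The isoforms were chosen for their rise in the same libraries, so these shares in UPF1-kd are a description.

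The skip of 4 exons in LETMD1 was in 68.7%, 75.9% and 71.6% of TPM in SCR and in 83.1%, 85.6% and 83.7% in UPF1-kd, over 9 transcripts with the skip and 3 without. The leader exon of CCNB1IP1 was in 84.8%, 83.9% and 91.7% in SCR and in 95.0%, 92.3% and 96.0% in UPF1-kd. The extra exon of TBL2-204 was in 9.0%, 5.36% and 7.37% in SCR and in 16.9%, 15.7% and 15.1% in UPF1-kd. The inner donor site of TBL2-209 was different, with 45.5%, 42.1% and 41.7% in SCR and 42.7%, 40.3% and 39.1% in UPF1-kd, which overlapped. The acceptor shift of NAT9 overlapped as well, with means of 65.1% and 64.1%. For the inner donor site of TBL2-209 and the acceptor shift of NAT9, isoforms with and without the event were higher in UPF1-kd in like proportion.

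**Figure D4:**
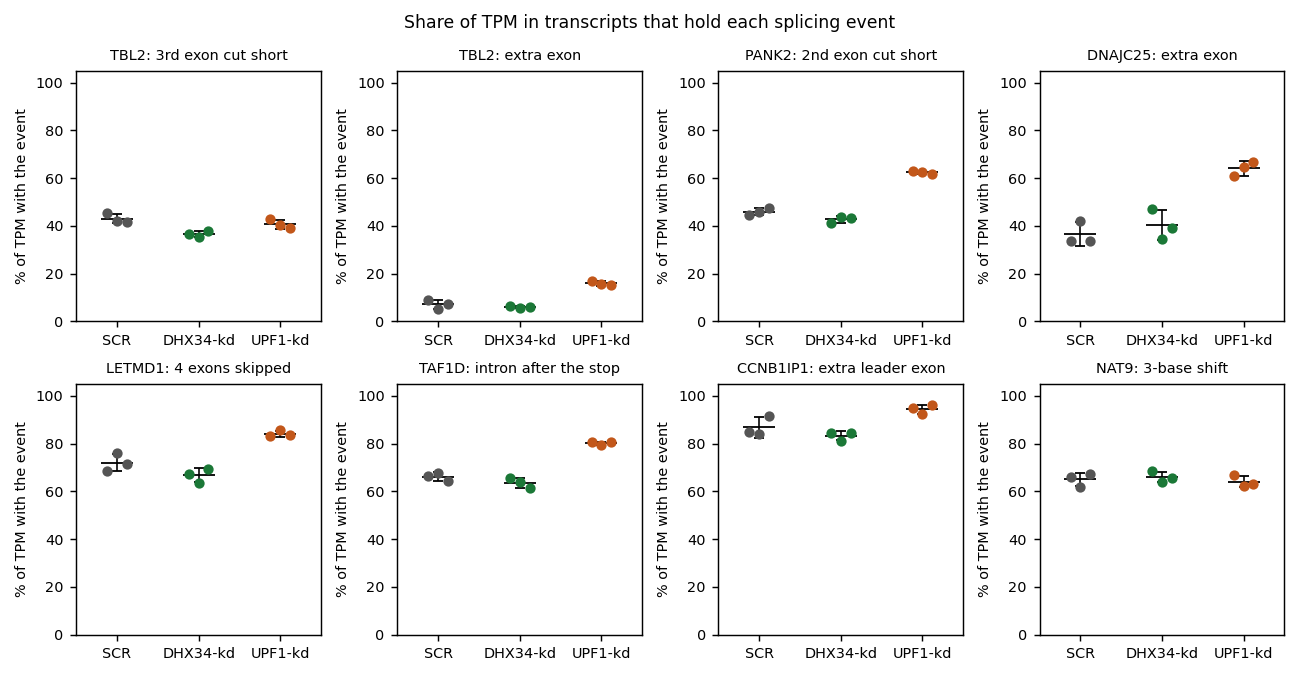
Percent of TPM in transcripts that hold each splicing event, among transcripts with either form, in each library (points) with the group mean and SD (bar), on axes from 0. The UPF1-kd points are above all SCR points in 6 of the 8 panels, and overlap them for the shortened exon of TBL2 (39.1% to 42.7%) and the 3-base shift of NAT9. The events were chosen with these libraries known, so the number of panels is a description.

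DHX34-kd was compared with SCR to ask whether the helicase acts on the same RNAs. At the gene level edgeR called 0 of the 8 members at an adjusted p of at most 0.005, where 10.4% of 17004 genes were called, 942 higher and 826 lower (4.86% lower). On the scale of log2(TPM + 0.5), limma called 786 higher and 93 lower. The members' log2 fold changes ran from -0.20 to 0.18 with a median of -0.07, compared with 0.02 over all genes tested. At an unadjusted p under 0.05 there were 2 of 8 members, both lower, compared with 6231 of 17004 genes. CCNB1IP1 had a log2 fold change of -0.20 (SE 0.047, adjusted p of 0.0108 by edgeR) and LETMD1 of -0.16 (SE 0.052, adjusted p of 0.0501). CCNB1IP1 was called by DESeq2, with an adjusted p of 0.000852, among 3034 genes in all. In CPM all 3 DHX34-kd libraries were below all SCR libraries in these 2 genes, as in 20.3% of genes. All 3 were above SCR in 0 members, compared with 21.1% of genes. In TPM these 2 genes overlapped SCR, and TAF1D lay above it, at 92.6, 91.4 and 103.0 compared with 91.0, 87.4 and 87.4. TAF1D-205 was also above SCR in TPM, at 12.7, 12.7 and 13.0 compared with 11.6, 11.1 and 11.5. Its log2 fold change on counts was -0.01 (SE 0.069). The share of genes above SCR in TPM was not counted. On the TPM scale, where the median of all genes was 0.13, LETMD1, DNAJC25, NAT9, PANK2 and TAF1D had log2 fold changes of 0.01 to 0.12 and none was called. On that scale CCNB1IP1 was at -0.05, with an adjusted p of 0.531 by limma.

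The remaining members had log2 fold changes of -0.10 (NAT9, SE 0.05, adjusted p of 0.162 by edgeR), -0.08 (DNAJC25, SE 0.086), -0.06 (PANK2, SE 0.05), -0.04 (TAF1D, SE 0.05), 0.01 (TBL2, SE 0.072) and 0.18 (UPP1, SE 0.255). A p above the threshold does not show that these genes were unaffected.

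The same held by biotype. Of 25 biotype sums of the members 0 were called by edgeR and 1 by DESeq2, the coding sum of CCNB1IP1, where 1.97% of 28586 sums were called. At an unadjusted p under 0.05 there were 4 of 25, all lower, compared with 7119 of 28586 sums, and DESeq2 called 2671 sums in all. The NMD-biotype sums of LETMD1, DNAJC25, TAF1D, PANK2, TBL2 and CCNB1IP1 had log2 fold changes of -0.21 (SE 0.157), 0.05 (SE 0.17), -0.08 (SE 0.052), -0.18 (SE 0.122), -0.18 (SE 0.069) and 0.25 (SE 0.198). The CCNB1IP1 coding sum had a log2 fold change of -0.23 (SE 0.05, adjusted p of 0.0259 by edgeR). Among 91 transcripts of the members 0 were called by edgeR, 5 had an unadjusted p under 0.05 and 1 was called by DESeq2, where 0.0463% of 60416 transcripts were called by edgeR. Over all transcripts 9208 had an unadjusted p under 0.05 and DESeq2 called 2739. LETMD1-206, a coding isoform, had 3.37, 3.95 and 4.24 TPM in SCR and 1.87, 2.55 and 2.29 in DHX34-kd, with a log2 fold change of -0.95 (SE 0.177, adjusted p of 0.0524 by edgeR). It was the transcript that DESeq2 called, at -0.96 with an adjusted p of 0.000148. CCNB1IP1-202 had a log2 fold change of -0.28 (SE 0.065, adjusted p of 0.0905) and DNAJC25-202 of 0.03 (SE 0.175, adjusted p of 0.968).

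The log2 ratio of NMD-biotype to coding TPM within a gene could be fitted for 6 members. In DHX34-kd limma called 0 of them, and 0 of 3830 genes, of which 344 had an unadjusted p under 0.05. The same fit called 1 of 3830 genes in UPF1-kd, where 1228 had an unadjusted p under 0.05 by limma. At this threshold the ratio fit thus called almost no gene in either knockdown, and nothing is read from the 0. The members' differences were -0.61 (TBL2, SE 0.244, adjusted p of 0.539 by limma), -0.28 (PANK2), -0.15 (LETMD1), -0.02 (TAF1D), 0.24 (DNAJC25) and 0.34 (CCNB1IP1). In UPF1-kd, as a description, the same ratio differed by 1.59 (SE 0.192) in DNAJC25, 1.45 (SE 0.345) in TAF1D, 1.09 (SE 0.144) in LETMD1, 0.92 (SE 0.179) in PANK2, 0.67 (SE 0.235) in TBL2 and 0.11 (SE 0.225) in CCNB1IP1. The median over the 3830 genes was 0.02 in DHX34-kd and 0.46 in UPF1-kd.

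Splicing event shares in DHX34-kd were described by overlap alone, and 3 libraries per group allow no smaller exact permutation p than 0.10. How often events of other genes separate was not counted, so nothing is read from the separations below. Among gene sums, all 3 DHX34-kd libraries lay above SCR in 21.1% of genes and below in 20.3%. The inner donor site of TBL2-209 was in 36.8%, 35.4% and 37.7% of TPM and that of PANK2 in 41.2%, 43.9% and 43.4%, in both cases below all SCR libraries. The poison exon of CCNB1IP1-213 was in 4.52%, 4.02% and 5.87% in DHX34-kd and in 3.46%, 3.63% and 2.49% in SCR, without overlap. TBL2 also had a lower NMD-biotype share of its TPM, 29.9%, 27.0% and 32.1% in DHX34-kd and 39.4%, 32.6% and 35.0% in SCR. TBL2-209 itself had means of 14.79 TPM in DHX34-kd and 15.05 in SCR. The coding isoform TBL2-205 was at 4.65, 9.06 and 6.82 TPM in DHX34-kd and at 0.0, 4.37 and 0.0 in SCR. It was at 0.0 TPM in all UPF1-kd libraries. Its part in these TBL2 shares and in the TBL2 ratio was not tested. The shares of all other events compared overlapped between DHX34-kd and SCR. Among them were those in DNAJC25-202, LETMD1-221, TAF1D-205, CCNB1IP1-202 and NAT9-210.

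Other coding genes linked to NMD were read in the same fits. The list held 24 genes, among them stress response genes with upstream open reading frames, splicing factors with poison exons and ribosomal protein genes. In UPF1-kd 9 of the 24 were called higher and 4 lower, where 12.4% and 12.9% of all genes were, with a median log2 fold change of 0.09 compared with 0.02. ATF3, a stress-induced transcription factor, had 16.6 ± 1.02 CPM in SCR and 34.2 ± 0.533 in UPF1-kd (log2 fold change 1.04, SE 0.051, adjusted p of 4.53e-08 by edgeR). SESN2, a stress-induced inhibitor of mTORC1 signalling, went from 64.9 ± 2.31 to 101.4 ± 0.515 CPM (log2 fold change 0.64, SE 0.033, adjusted p of 6.86e-08). GADD45B, a growth arrest gene, was at 1.01 ± 0.158 and 1.74 ± 0.201 CPM and was not called (log2 fold change 0.78, SE 0.19, adjusted p of 0.00579).

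In DHX34-kd edgeR called 0 of the 24 genes higher and 8 lower, where 4.86% of all genes were called lower, with a median log2 fold change of -0.175 compared with 0.018 over all genes. Without SCR replicate 1 the number called in either direction was 2, and without SCR replicate 3 it was 4. ASNS, the asparagine synthetase, had 387.0, 370.0 and 387.0 CPM in SCR and 285.0, 279.0 and 254.0 in DHX34-kd (log2 fold change -0.48, SE 0.049, adjusted p of 7.29e-05 by edgeR). GADD45A, another growth arrest gene, had a log2 fold change of -0.37 (SE 0.045, adjusted p of 0.000227) and DDIT3, the stress transcription factor CHOP, of -0.36 (SE 0.06, adjusted p of 0.00158). The rest of the 8 were ATF4, TRIB3, TRA2B, RPL3 and RPL12. Whether the stress response genes among the 8 moved as a group was not tested.

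The genes whose pattern was most like the mean standardised profile of the members over the 9 libraries were DCUN1D2, ITFG2 and ODR4, each with a Pearson correlation of 0.995 of log2 CPM among 9493 genes ranked. DCUN1D2, which codes for a cullin neddylation cofactor, had 13.7, 13.2 and 14.1 CPM in SCR, 12.8, 13.0 and 13.6 in DHX34-kd and 31.1, 30.1 and 29.5 in UPF1-kd. ITFG2 had means of 15.7, 15.2 and 22 CPM in the same groups and ODR4 of 41.5, 40.8 and 61.4 CPM. These values describe 9 libraries in 3 groups, and most of the variation lies between UPF1-kd and the other groups.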

How the data were processed

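Total RNA of K562 cells was sequenced by poly(A) selection in 3 libraries per group. The deposited expected counts are the reads that the authors assigned to each transcript with salmon 1.5.2, with GC bias correction, against Ensembl release 93 of GRCh38. The deposited TPM values were computed by the authors in the same salmon runs from counts and effective lengths. Tables of the authors' own comparisons (sleuth fold changes and q values, and SUPPA2 splicing changes) were not used. Of 203027 transcripts 97.9% were matched by identifier to GENCODE release 44, which gave names, biotypes and exons, and 85.8% of those had the same length in both. Libraries held 73478797 to 103625443 expected counts. Coding isoforms whose length differed between the annotations are drawn as GENCODE gives them.

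Expected counts were summed per gene and per gene and biotype class (coding, NMD, retained intron, other), rounded, and fitted with edgeR 4.0.16 across all features (TMM, filterByExpr with a minimum count of 10, quasi-likelihood test, Benjamini-Hochberg adjustment). A feature was called at an adjusted p of at most 0.005. The NMD-biotype to coding ratio was fitted with limma 3.58.1 on log2 of TPM plus 0.1, in genes of at least 1 TPM with at least 0.1 TPM of NMD-biotype transcripts. DESeq2 1.42.0, other filters, scales and thresholds, a block by replicate number and leaving out each library were tried as alternatives. The scripts were tested on simulated data.

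The members, the list of other NMD-linked genes and the tests were chosen with earlier results of these data known. All 8 members were named, with the transcript of the largest rise in mean TPM from SCR to UPF1-kd. Of the other NMD-linked genes, those chosen by rule were the 3 with the largest log2 fold change in UPF1-kd and the 3 with the largest absolute called change in DHX34-kd. The rest of those called lower in DHX34-kd, and IVNS1ABP, were named as well. The 3 protein-coding genes of at least 5 CPM most correlated with the mean standardised profile of the members were named as most alike. LETMD1-206, TBL2-204, TBL2-205, TBL2-219, CCNB1IP1-213 and PANK2-204 were singled out after their values were seen. The p-values measure the spread between 3 libraries per group.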

Additional observations from a re-analysis of the deposited data

How the results depend on the processing

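The number of genes called in DHX34-kd, 1768, was 3034 with DESeq2, 3396 with no filter on low counts, 879 with limma on log2(TPM + 0.5), 966 with limma on log2(TPM + 0.1), 767 on length-scaled counts, 4403 at an adjusted p of at most 0.05, and 781 to 1785 when each library was left out. The number of members called, 0, was 1 with DESeq2, with no filter, with all 9 libraries in one fit and at an adjusted p of at most 0.05, in each case CCNB1IP1. The 563 biotype sums became 2671 with DESeq2, 1029 with no filter, 23 with transcripts of the same length in both annotations, 3147 at 0.05 and 53 to 347 with a library left out, and the members' 0 became 1 with DESeq2 and at 0.05. The 28 transcripts became 2739 with DESeq2, 110 with no filter, 200 with limma on log2(TPM + 0.5), 1582 at 0.05 and 0 without any one library, and the members' 0 became 1 with DESeq2. The ratio, with 0 calls, had 5 with a pseudocount of 1 TPM and 10 at 0.05. The 8 other NMD-linked genes called, all lower in the main fit, became 14 with DESeq2, 15 at 0.05 and 2 to 9 with a library left out. These counts take both directions together. At 0.05 they include IVNS1ABP, which was higher in DHX34-kd (log2 fold change 0.14, adjusted p of 0.0143 by edgeR). The causes of these differences were not tested.

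The samples share only a replicate number. The deviations of log2 CPM from the group mean of each gene correlated at -0.09 to 0.05 between same-numbered knockdown and SCR libraries. With the replicate block 1007 genes, 5 biotype sums, 0 transcripts and 4 of the other NMD-linked genes were called.

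The median log2 fold change of the members in UPF1-kd, 0.54, was 0.77 by mean TPM, 0.59 with same-length transcripts and 0.52 to 0.55 with a library left out. With same-length transcripts UPP1 was at -0.22, CCNB1IP1 at 0.73 and DNAJC25 at 2.38. Small DHX34-kd log2 fold changes changed sign. On both TPM scales LETMD1 was at 0.01, DNAJC25 at 0.07, NAT9 at 0.12, PANK2 at 0.11 and TAF1D at 0.11. By biotype on TPM the coding sums were at 0.05 (LETMD1), 0.07 (NAT9), 0.17 (PANK2) and 0.06 (TAF1D), and the NMD sum of TAF1D at 0.05. TBL2 was at -0.00 with DESeq2, the CCNB1IP1 coding sum at 0.05 with same-length transcripts and the TAF1D ratio at 0.00 with a pseudocount of 1 TPM. With a library left out TBL2 ran from -0.10 to 0.07, UPP1 from -0.01 to 0.31, the DNAJC25 NMD sum from -0.03 to 0.17, the TAF1D coding sum from -0.61 to 0.24, the PANK2 coding sum from -0.11 to 0.05 and the TAF1D ratio from -0.40 to 0.19.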
